A study of Gallus gallus with 10 samples.

Results

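The genes described here carry symbols given to proteins of the mitochondrial ribosome and were chosen by name, as every gene whose current symbol starts with MRPL or MRPS. Of 73 such genes in the reference gene table, 67 had a probe set annotated to that gene alone, among 13051 genes measured in all. Of the 67, 5 lie on the Z chromosome (MRPS30, MRPL50, MRPL17, MRPS36 and MRPS27), 62 lie on 21 autosomes and 0 lie on W. The other 6 (MRPL35, MRPL36, MRPL49, MRPS15, MRPS18C and MRPS24) were not analysed here. Whole brains were dissected from chicken embryos, and their RNA was hybridised to Affymetrix arrays for 5 male and 5 female samples, each with an array of its own. The labels name no treatment and give no embryonic age, breed or number of embryos per sample. Nothing says that the samples of a sex came from separate embryos, so p-values cover only the variation among these samples, and that may be technical.

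The mitochondrial ribosome is a machine of a small and a large subunit that translates the few messages encoded by mitochondrial DNA, all of them for subunits of the respiratory chain and ATP synthase in vertebrates. Its RNA comes from the mitochondrial genome, whereas its proteins are encoded in the nucleus, made in the cytosol and imported. In birds the male is ZZ and the female ZW, so a Z gene without a W copy has an extra copy in males, while autosomal genes have equal copy number in both sexes. The comparison therefore asks how the Z-linked genes of a family with mostly autosomal members are expressed in each sex.

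Every gene is represented by its brightest probe set, and levels are log2(intensity + 16), a scale on which fold changes of dim genes are understated. The probe sets differ in sequence, so signals of different genes are not read as relative abundance and serve only to set a floor on signal or a place within the range of an array. Medians of probe sets for viral sequences, used as a measure of background, ran from 5.41 on male replicate 1 to 6.32 on female replicate 3, and 95% of these probe sets averaged below 7.63. A level of at least 9.33, the median of all tested probe sets, is called expressed. Of 10 neuronal markers, 9 were expressed, with GAP43 at 6.50 the exception, and all 8 radial glial and astrocyte markers were expressed. Of 4 muscle markers, MYL1 (7.61) and TNNI2 (6.32) lay under the background limit, and TNNT3 (9.89) and ACTA1 (9.99) were expressed. Of 63 measured markers for 10 cell types or tissues, 1 differed between the sexes past the threshold, the vessel gene FLT1, with a male excess of 0.32 (SE 0.06, limma adjusted p = 0.0338). Over all genes 1.59% passed toward males and 0.207% toward females. FLT1 does not lie on Z, and over autosomal genes only 0.0409% passed toward males and 0.106% toward females. The 5 red cell markers measured all differed toward females, by a median of -0.15, and none passed. Their summed intensity was 211681 to 255981 in males and 235192 to 269617 in females. Of 6 choroid plexus markers, 1 was positive, with a median of -0.14, and of 5 eye markers 2 were positive, with a median of -0.19. Over all genes 44.4% of differences were positive. Other lists leaned toward males, with 6 of 10 neuronal markers positive (median 0.03) and 3 of 5 oligodendrocyte markers (0.03). So did 5 of 8 leukocyte markers (0.06) and 4 of 6 vessel markers (0.08). CLIC6, a choroid plexus marker, had every female above every male (-0.78, SE 0.24, limma adjusted p = 0.294), as did 0.736% of all genes. The summed intensity of the choroid plexus markers was 117183 to 151671 in males and 135264 to 161237 in females, and that of the eye markers 7031 to 9520 and 8803 to 11830. The part of these tissues in the results below was not tested.

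All 5 Z-linked genes were higher in males, by 0.70 to 1.10 on the log2 scale, which is a male to female ratio of 1.62 to 2.14. None of the 62 autosomal genes passed the same test in either direction (limma, Benjamini-Hochberg adjustment over all genes, threshold 0.05), and 4 of them had an unadjusted p under 0.05, where 7.62% of all genes did. Among all genes tested, 1.59% passed toward males and 0.207% toward females. Among all 606 Z genes 33.2% were higher in males, and among 12229 autosomal genes 0.0409% were higher in males and 0.106% in females. In whole brain RNA, a smaller number of expressing cells and less RNA per cell cannot be told apart.

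MRPS30, despite its symbol, is a component of the large subunit in structures of the mammalian mitochondrial ribosome (NCBI gene 395781). Its log2 level was 12.78, 12.71, 12.23, 12.58 and 12.72 in male replicates 1 to 5, and 11.42, 11.24, 11.52, 11.76 and 11.58 in female replicates 1 to 5. Every male array lay above every female array, with male replicate 3 the lowest male. Males averaged 12.60 ± 0.22 and females 11.51 ± 0.19 (SD, n = 5 each), and the gap was 1.10 (SE 0.13, 95% interval 0.81 to 1.39, limma adjusted p = 0.00149). Its ratio of 2.14 was the highest of the 5 Z-linked genes.

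MRPL50, a large subunit protein without a bacterial counterpart (NCBI gene 427307), had log2 levels of 13.58, 13.55, 13.42, 13.58 and 13.70 in males. The female levels were 12.57, 12.48, 12.76, 12.44 and 12.63. The sexes did not overlap, and the lowest male exceeded the highest female by more than the whole range within either sex. The means of 13.57 ± 0.10 and 12.57 ± 0.13 (SD, n = 5 each) differed by 0.99 (SE 0.08, 95% interval 0.81 to 1.17, limma adjusted p = 0.000151), a ratio of 1.99.

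MRPL17, the homologue of bacterial ribosomal protein L17 at the exit of the peptide tunnel (NCBI gene 769700), had log2 levels of 14.02, 14.13, 14.46, 14.39 and 14.21 in males. In females they were 13.44, 13.29, 13.64, 13.42 and 13.09. Male replicate 3, the lowest male for MRPS30, was here the highest, and again all males lay above all females. The means of 14.24 ± 0.18 and 13.37 ± 0.20 (SD, n = 5 each) differed by 0.87 (SE 0.12, 95% interval 0.60 to 1.14, limma adjusted p = 0.00445), a ratio of 1.82.

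MRPS36 was named as a small subunit protein, and the human protein is now also known as KGD4, a subunit of the 2-oxoglutarate dehydrogenase complex of the citric acid cycle (NCBI gene 771273). It is counted among the Z-linked mitochondrial ribosomal genes by its symbol alone. Male arrays read 13.86, 13.78, 13.87, 14.01 and 13.94 on the log2 scale. Female arrays read 13.15, 13.04, 13.07, 13.14 and 13.02. All males lay above all females, and arrays of a sex lay close together. The means of 13.89 ± 0.09 and 13.08 ± 0.06 (SD, n = 5 each) differed by 0.81 (SE 0.06, 95% interval 0.67 to 0.95, limma adjusted p = 0.00013), a ratio of 1.75.

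MRPS27, a pentatricopeptide repeat protein of the small subunit (NCBI gene 427216), read 13.55, 13.66, 13.70, 13.70 and 13.67 on the male arrays. The female arrays read 13.08, 12.93, 12.89, 12.85 and 13.04. Male replicate 1 was the lowest male but still above every female. The means of 13.66 ± 0.06 and 12.96 ± 0.10 (SD, n = 5 each) differed by 0.70 (SE 0.07, 95% interval 0.55 to 0.84, limma adjusted p = 0.000386), a ratio of 1.62, the smallest of the 5. Each of the 5 genes thus had 5 of 5 males above all females, an order seen in 2.15% of all genes, 42.1% of Z genes and 0.188% of autosomal genes. The plot of the 5 genes by array shows both groups.

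**Figure D1:**
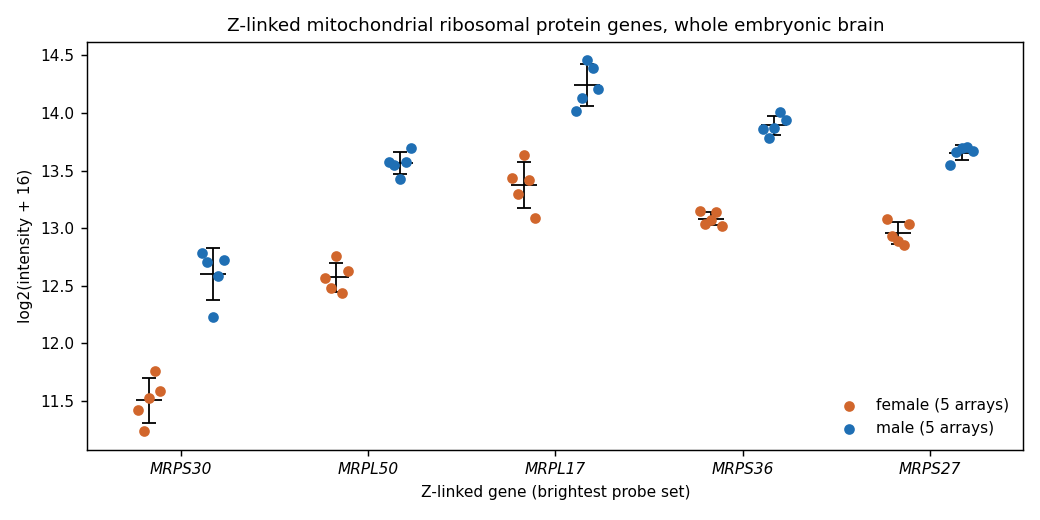
Each point is 1 array, with log2(intensity + 16) on the vertical axis and the 5 Z-linked genes on the horizontal axis, and black marks give the mean and SD of 5 arrays per sex. In every gene the 5 male points (blue) lie above the 5 female points (orange), with differences of 0.70 for MRPS27 to 1.10 for MRPS30.

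The intervals of MRPS30, MRPL50 and MRPL17 held a ratio of 2 (a log2 difference of 1), and those of MRPS36 and MRPS27 ended below it. Whether the male excess differed among the Z-linked genes was tested for all 10 pairs, a comparison added after the values were seen. For each pair the within-array log2 difference was compared between sexes by an exact permutation test, two-sided, whose smallest possible p is 0.00794. With that limit and 10 pairs, a single differing pair could not pass after adjustment. The 95% intervals are t intervals with 8 degrees of freedom, without adjustment, so they need not match the permutation p. The excess of MRPL50 over that of MRPS27 was 0.29 (95% interval 0.09 to 0.50, exact p = 0.0159, adjusted over 10 pairs p = 0.159). That of MRPS30 over MRPS27 was 0.40 (95% interval 0.03 to 0.77, exact p = 0.0556, adjusted p = 0.179). No pair passed after adjustment, which a single differing pair could not have done. The interval for MRPL17 against MRPS36, the closest pair, ran from -0.19 to 0.30. The order of the 5 genes is therefore a description, and differences of the sizes in these intervals remain possible.

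Set among expressed Z genes, the 5 had male excesses above the median. All except MRPS27 also lay above the upper quartile of 0.77. Of 445 expressed Z genes, 7 had a larger male minus female difference than MRPS30, 30 a larger one than MRPL50, 64 than MRPL17, 93 than MRPS36 and 144 than MRPS27. The median difference was 0.87 over the 5 and 0.47 over the expressed Z genes. Of the 195 Z genes with a mean signal at or above the lowest of the 5, 57.4% were higher in males and 70.8% had every male above every female, with a median difference of 0.45. The 5 were chosen by name and are few, and these shares are given as a description.

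The 62 autosomal genes had a median difference of -0.02, a ratio of 0.986, beside -0.03 over all autosomal genes. Of the 62, 24 had a positive difference, as did 42.7% of all autosomal genes. The middle of their distribution was narrow, from -0.08 at the lower quartile to 0.04 at the upper. In 0 of the 62 did every array of one sex exceed the other sex, an order found in 0.188% of autosomal genes for males and 0.662% for females (0.736% of all genes for females). For 55 of the 62 the 95% interval of the difference lay wholly within a ratio of 1.5 in either direction, and for 59 within a ratio of 2. By unadjusted exact permutation, 1 autosomal gene was higher in males (MRPS2) and 3 in females (MRPL42, MRPL43 and MRPL1) at p under 0.05. By the same test 1.33% of all autosomal genes were higher in males and 3.66% in females (3.82% and 3.64% of all genes), so these counts are near the background. The share with an unadjusted limma p under 0.05 over all autosomal genes was 5.08%, and 4 of the 62 (MRPL21, MRPL43, MRPL1 and MRPS2) had one. The plot of all 67 differences shows the Z-linked genes apart from the measured autosomal genes except for a pair of dim ones.

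**Figure D2:**
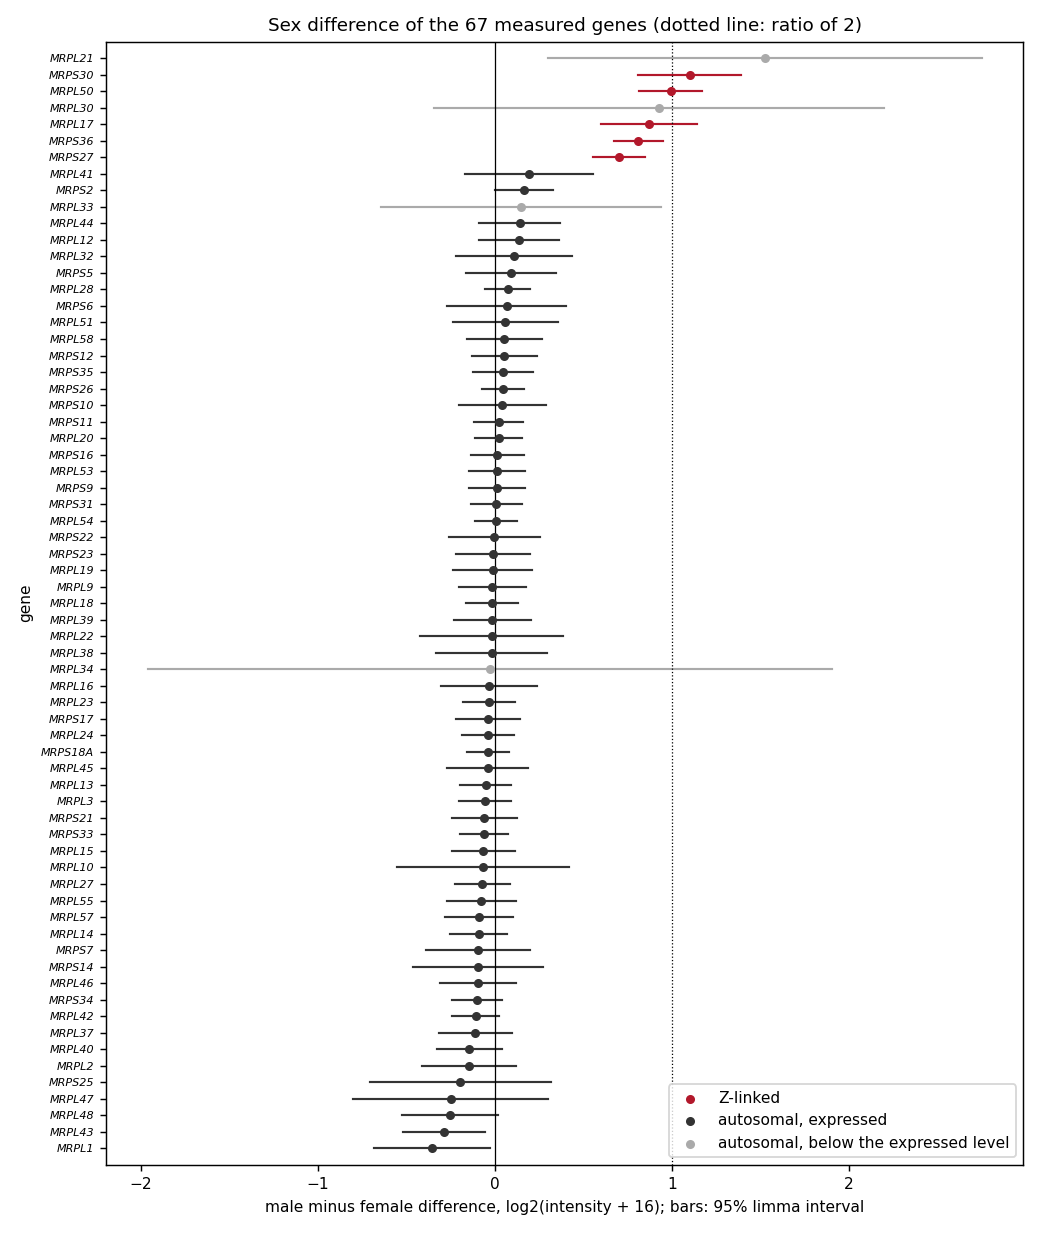
Each row is 1 gene, the horizontal axis is the male minus female difference in log2(intensity + 16), points are estimates and bars are 95% limma intervals. The 5 Z-linked genes (red) lie at 0.70 to 1.10, the expressed autosomal genes (black) cluster around 0, and the autosomal genes below the expressed level (grey), MRPL21, MRPL30, MRPL33 and MRPL34, have wide intervals.

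Toward females, the furthest autosomal gene was MRPL1, the homologue of the bacterial stalk protein L1. Males averaged 10.01 ± 0.24 and females 10.37 ± 0.23 (SD, n = 5 each), so the male minus female value was -0.35 (SE 0.15, limma adjusted p = 0.593). MRPL43 differed by -0.29 (SE 0.10, adjusted p = 0.442), MRPL48 by -0.25 (SE 0.12, adjusted p = 0.71) and MRPL47 by -0.25 (SE 0.25, adjusted p = 0.9) in limma. In each of these 4 large subunit genes the male and female arrays overlapped. The value for MRPL47 rests on few arrays, at -0.10 without male replicate 1, -0.13 without female replicate 2 and -0.38 without male replicate 5. Toward males, among expressed autosomal genes, MRPL41 differed by 0.19 (SE 0.16, limma adjusted p = 0.88) and MRPS2, the homologue of bacterial S2, by 0.16 (SE 0.07, adjusted p = 0.645). MRPL41 was at 0.08 without female replicate 2, 0.12 without male replicate 1 and 0.13 without male replicate 5. For MRPS2, 4 of 5 males lay above all females, and its means of 11.57 ± 0.13 and 11.40 ± 0.05 (SD, n = 5 each) differ by far less than those of the Z-linked genes.

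The largest autosomal estimates toward males came from dim probe sets. MRPL21 read 8.01, 8.96, 8.70, 7.87 and 8.87 in males and 6.57, 9.00, 6.54, 6.92 and 5.76 in females on the log2 scale. Female replicate 2 exceeded every male. The other females lay below every male and under the background limit of 7.63, so the size of the sex difference is poorly measured. The difference was 1.52 (SE 0.54, limma adjusted p = 0.452), and without female replicate 2 it was 2.03 (limma adjusted p = 0.0132). MRPL30 differed by 0.93 (SE 0.57, adjusted p = 0.812 in limma), with female replicate 1 at 5.24, within the viral background, and the other females between 7.47 and 8.64. Without that array the difference was 0.36. MRPL34 was the only one of the 67 genes whose mean, 7.59, did not exceed the background limit. Its arrays ran from 5.21 to 8.80 in males and from 5.64 to 9.17 in females, so no sex difference could be measured. MRPL33, at 8.59 and named after its values were seen, differed by 0.15 (SE 0.35), and these 4 were the genes of the 67 below the expressed level.

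By subunit, 41 autosomal genes carry large subunit symbols and 21 small subunit symbols. The median difference was -0.03 over the former and 0.01 over the latter, and 13 of 41 and 11 of 21 were positive, beside 42.7% of all autosomal genes. A few are given here for their roles, and all except MRPL12, MRPL48, MRPL58, MRPS12 and MRPS18A were picked after their values were seen. In the stalk that recruits translation factors, MRPL12, which is also known to bind the mitochondrial RNA polymerase, differed by 0.13 (SE 0.10; 0.06 without female replicate 2) and MRPL10 by -0.07 (SE 0.22). In the central protuberance of the large subunit, MRPL38 differed by -0.02 (SE 0.14), MRPL40 by -0.14 (SE 0.08), MRPL46 by -0.10 (SE 0.09) and MRPL48 by -0.25 (SE 0.12). Limma adjusted p for these 6 genes was at least 0.71.

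Around the peptide exit tunnel, MRPL22 differed by -0.02 (SE 0.18), MRPL23 by -0.04 (SE 0.07), MRPL24 by -0.04 (SE 0.07) and MRPL45, which contacts the inner membrane, by -0.04 (SE 0.10). MRPL37, which pairs with MRPS30 in mammalian structures, differed by -0.11 (SE 0.09, limma adjusted p = 0.878), where MRPS30 itself differed by 1.10. MRPL58, which releases peptides from stalled ribosomes, differed by 0.05 (SE 0.09, adjusted p = 0.953 in limma). In the small subunit, the decoding centre protein MRPS12 differed by 0.05 (SE 0.08, adjusted p = 0.946 in limma). MRPS18A, like MRPS30 a large subunit protein despite its symbol, differed by -0.04 (SE 0.05, adjusted p = 0.921 in limma).

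Array by array, the Z-linked genes parted from the autosomal ones by sex. Each gene was centred on its mean over the 10 arrays, and the median was taken over each set of genes. For the Z-linked genes this median was 0.37, 0.35, 0.38, 0.52 and 0.45 in male replicates 1 to 5 and -0.37, -0.52, -0.42, -0.39 and -0.47 in female replicates 1 to 5. For the autosomal genes it ran from -0.06 to 0.04 in males and from -0.04 to 0.05 in females, and the sexes overlapped. The Z-linked minus autosomal median averaged 0.43 ± 0.04 over the male arrays and -0.44 ± 0.07 over the female arrays (SD, n = 5 each). The sexes were thus 0.87 apart, which is a ratio of 1.82. Taken relative to the autosomal median of its own array, MRPS30 had a male to female ratio of 2.17, MRPL50 of 2.01, MRPL17 of 1.85, MRPS36 of 1.77 and MRPS27 of 1.64. Male replicate 1, which had the lowest viral background, lay within the range of the other males in both sets.

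**Figure D3:**
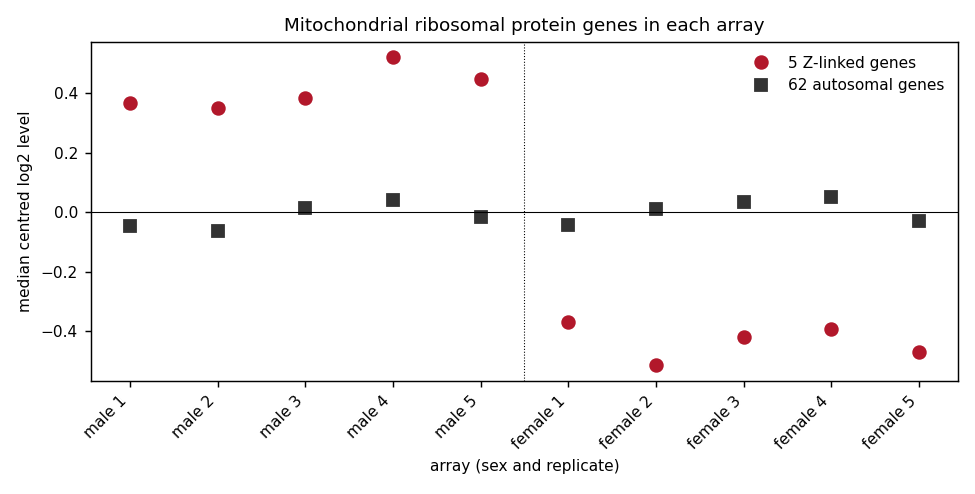
The vertical axis is the median, over genes, of the log2 level minus the mean of that gene over the 10 arrays, and each array has 1 point for the 5 Z-linked genes (circles) and 1 for the 62 autosomal genes (squares). The circles lie at 0.35 to 0.52 in males and at -0.52 to -0.37 in females, while the squares stay between -0.06 and 0.05 in both.

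Other probe sets of the same genes gave a check on the chosen ones. The 67 genes had 96 probe sets in all, and 19 genes had several. The 3 probe sets of MRPL17 gave male minus female differences of 0.87, 0.89 and 0.96, all past the threshold over all probe sets (limma), where 0.643% of probe sets were higher in males and 0.156% in females. All 3 are of the types that can match more than 1 transcript. By their names a pair of them share a target, and all read the same RNA samples, so they are not independent measures. A further probe set of MRPL50, at a mean level of 9.22, differed by 1.31 (SE 0.27, limma adjusted p = 0.0847 over all probe sets). A further probe set of MRPS27 differed by -0.02 (SE 0.64), and its mean level of 6.33 was within the viral background, so it carries no measure of the gene. MRPS30 and MRPS36 had a single probe set each. Of the 9 probe sets of Z-linked genes 7 were higher in males, and of the 87 probe sets of autosomal genes 0 passed. The 25 further autosomal probe sets ranged from -1.39 to 0.78, both ends at dim probe sets of MRPL20 and MRPL32. Those at the expressed level ran from -0.29 for MRPL9 to 0.48 for MRPS33, whose chosen probe sets gave -0.02 and -0.06.

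The 5 genes are spread along Z. Among the 606 measured Z genes in assembly order, MRPL17 was number 94, MRPS30 number 152, MRPS36 number 211, MRPS27 number 261 and MRPL50 number 515. Their nearest measured neighbours, 5 on each side, varied in the size of the male excess. Of 10 neighbours, 2 were higher in males around MRPL17, 3 around each of MRPS30, MRPS36 and MRPS27, and 4 around MRPL50. Over all 606 Z genes 33.2% were higher in males, so these counts are near the background. The median difference of the neighbours was 0.15 around MRPL17, 0.44 around MRPS30, 0.42 around MRPS36, 0.49 around MRPS27 and 0.68 around MRPL50. Next to MRPS30 lie FGF10, a gene under the expressed level with a difference of -0.15 (SE 0.30), and EMB, with a male excess of 0.63 (SE 0.13, limma adjusted p = 0.0455). Next to MRPS27 lie PTCD2, known in mouse for processing of a mitochondrial message, and MAP1B, a microtubule protein of neurons. PTCD2 had a male excess of 0.76 (SE 0.07, limma adjusted p = 0.000414), and MAP1B differed by 0.01 (SE 0.07, adjusted p = 0.989). Genes that passed and genes that did not thus stood side by side on Z, and these neighbours were picked for mention after their values were seen.

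**Figure D4:**
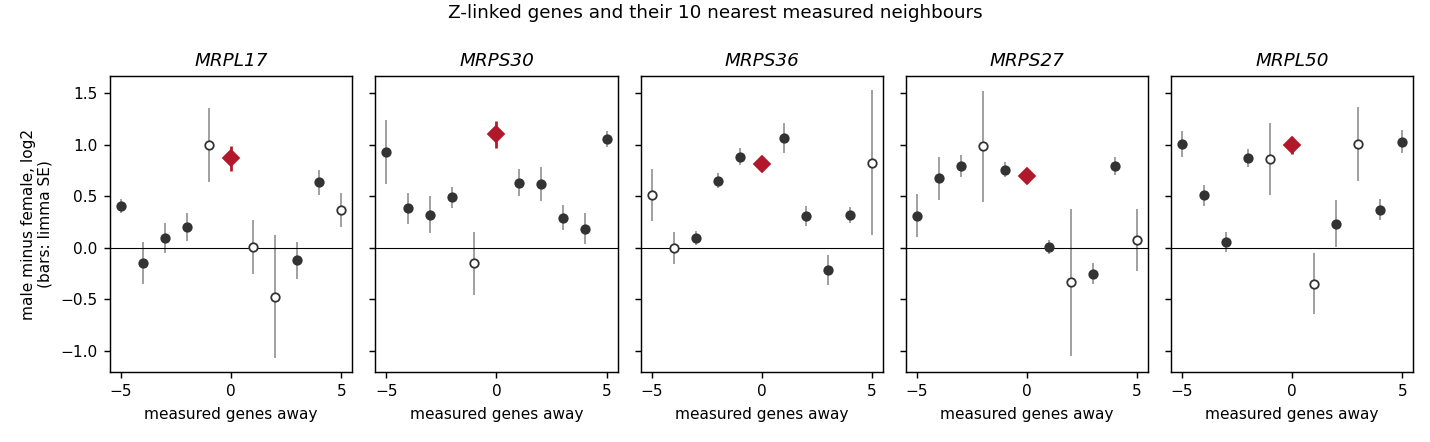
Each panel holds 1 Z-linked gene (red diamond) and its 10 nearest measured genes in assembly order, with the male minus female log2 difference on the vertical axis and bars of 1 limma SE; open circles are genes below the expressed level. Differences of the neighbours run from -0.47 near MRPL17 to 1.06 near MRPS36.

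Other genes of mitochondrial gene expression were followed through 5 lists of 98 genes, of which 67 were measured. The lists are not complete, and PTCD2, the Z gene with a male excess named above, is on none of them. None of the 67 passed the threshold in limma (0 higher in males, 0 higher in females, 3 with an unadjusted p under 0.05), and the median difference was -0.02. Over all genes 1.59% passed toward males and 0.207% toward females, and 7.62% had an unadjusted limma p under 0.05. These comprised 24 genes of ribosome assembly and ribosomal RNA modification (median -0.02), 13 of translation factors (0.01), 15 of mitochondrial aminoacyl-tRNA synthetases (-0.04) and 10 of mitochondrial DNA maintenance and transcription (-0.02). A further 5 encode ribosomal proteins under other names (-0.05). Of the 67, 1 lies on Z. This is GFM2, the factor that splits the mitochondrial ribosome for recycling, which read 11.01, 11.16, 10.81, 10.92 and 10.11 on the male arrays. The female arrays read 10.26, 9.86, 10.16, 10.07 and 9.87. Male replicate 5 lay below female replicates 1 and 3, and the difference of 0.76 (SE 0.19, ratio 1.69) did not pass (limma adjusted p = 0.118). DAP3, a GTP-binding protein of the small subunit on an autosome, averaged 12.77 ± 0.01 over male and 12.98 ± 0.09 over female arrays (SD, n = 5 each). All its female arrays lay above all males, but the difference of -0.21 (SE 0.06) did not pass (limma adjusted p = 0.191). DAP3 is named here after its values were seen, as is TRMT61B, a methyltransferase of mitochondrial RNA that the assembly table leaves unplaced. TRMT61B differed by 0.36 (SE 0.12, limma adjusted p = 0.338), with all males above all females. Of the 67 genes, 1 had all males above all females and 1 the reverse. Over all genes 2.15% and 0.736% did, and over autosomal genes 0.188% and 0.662%. Since 65 of the 67 are autosomal, the autosomal shares are the closer background. With 1 gene in each direction, these counts are given as a description.

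The cytosolic ribosome offers a comparison with a similar layout, mostly autosomal with a few Z genes. Of its 64 measured protein genes 4 lie on Z, and 0 of the 64 passed in limma, with 2 at an unadjusted p under 0.05. Over all genes 7.62% had such an unadjusted p, and 33.2% of all Z genes passed toward males. Of the 195 Z genes at or above the lowest mean signal of a Z-linked mitochondrial ribosomal gene, 57.4% passed toward males. RPL17 differed by 0.28 (SE 0.09), RPS23 by 0.24 (SE 0.08), RPS6 by 0.19 (SE 0.10) and RPL37 by 0.11 (SE 0.06), all toward males. The excess of each Z-linked mitochondrial ribosomal gene was larger than that of each of these 4 genes. In all 20 pairs the within-array log2 difference was larger in males, by 0.42 to 0.99 (exact permutation p = 0.00794 for each, the smallest possible, and adjusted over the 20 pairs p = 0.00794). This test was added after the values were seen. The 4 cytosolic genes had intensities of 96623 to 150900, where the brightest probe set of an array read 145172 to 238452, and the Z-linked mitochondrial ribosomal genes read 2398 to 22496. Whether signals near the top of the range were compressed was not tested, here or for the respiratory chain genes that follow. Nor was it tested which of these Z genes have a W copy, so their copy number may not differ alike between the sexes.

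In the respiratory chain, whose mitochondrially encoded subunits are the products of this ribosome, 4 of 65 measured nuclear subunit genes lie on Z and all 4 were higher in males. Over all Z genes 33.2% were. Of the 195 Z genes at or above the lowest mean signal of a Z-linked mitochondrial ribosomal gene, 57.4% were. NDUFS4 of complex I was higher by 0.86 (SE 0.07), COX7C of complex IV by 0.63 (SE 0.06), and the ATP synthase genes ATP5I by 0.61 (SE 0.07) and ATP5F1AZ by 0.47 (SE 0.08), with limma adjusted p from 0.000228 to 0.0205. Their intensities ran from 7341 to 94707. Of the 60 autosomal subunit genes 0 passed in limma, with 2 at an unadjusted p under 0.05 and a median difference of -0.03. Over all autosomal genes 5.08% had such an unadjusted p. Among 20 pairs of a Z-linked mitochondrial ribosomal gene and a Z-linked respiratory chain gene, 10 differed in male excess by the exact permutation test after adjustment over the 20. In each of these 10, all against COX7C, ATP5I or ATP5F1AZ, the MRPL or MRPS gene had the larger excess. For MRPL50 against ATP5I it was larger by 0.38 (exact permutation p = 0.00794, adjusted p = 0.0317). MRPS30, MRPL50 and MRPS36 passed against each of COX7C, ATP5I and ATP5F1AZ, MRPL17 against ATP5F1AZ alone, and MRPS27 against none. This test, too, was added after the values were seen. The symbol ATP5F1AZ names a Z form, and whether this gene has a W copy was not tested. Its copy number may therefore not differ between the sexes as that of the other genes does. Against NDUFS4, 0 of the 5 genes passed, with differences from -0.17 for MRPS27 to 0.24 for MRPS30 and intervals between -0.39 and 0.56. Both families therefore had a male excess in every measured Z gene and in no measured autosomal gene past the threshold. Over all autosomal genes 0.0409% passed toward males and 0.106% toward females, so the lack of autosomal calls is near the background.

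**Figure D5:**
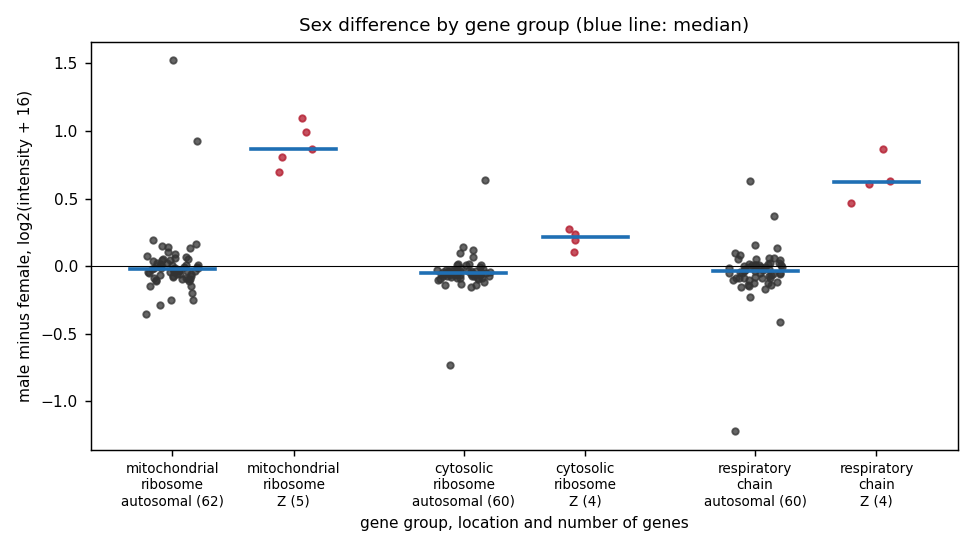
Points are genes, the vertical axis is the male minus female difference in log2(intensity + 16), and blue lines are medians, with autosomal (black) and Z-linked (red) genes of 3 groups side by side and their number in brackets. Autosomal medians are -0.02, -0.05 and -0.03, and the Z medians are 0.87 for the mitochondrial ribosome, 0.22 for the cytosolic ribosome and 0.62 for the respiratory chain.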

How the data were processed

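The deposited intensity values are linear, 1 per probe set, and how the authors summarised probes was not given in the sources used here. Each array had a mean of 2500 once 2% of values were trimmed at either end, so the values had been scaled before deposit. The 96 control probe sets were left out, leaving 38439, of which 27168 had 1 gene symbol, 177 several and 11094 none. Symbols and chromosomes came from gene identifiers through the reference table of assembly bGalGal1.mat.broiler.GRCg7b, where 12872 of 13051 genes matched by identifier and 1 by accession. No coordinates are given, since the build of the array design is not known here, and sequences were not used here.

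The scale was log2(intensity + 16), with no added normalization or filter. Sexes were compared without pairing in limma 3.58.1 (R 4.3.3) across all genes, male minus female, with Benjamini-Hochberg adjustment and a threshold of 0.05, and the fit was tested on simulated data. Background was taken from 687 viral probe sets. The number of arrays limits the precision. The genes, lists and comparisons were chosen with earlier results of these data known. Genes named were all on Z, the 4 autosomal genes furthest in each direction, any past the threshold or without overlap, MRPS18A, MRPL12, MRPL58, MRPS12 and those at background, and others are stated as chosen later. Alternatives covered normalization, pseudocount, filters, probe set choice, variance model, test, adjustment and samples.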

Additional observations from a re-analysis of the deposited data

Results flagged for a closer look

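In 36 groups of 5 arrays (18 named genes in each sex), 3 held an array far from the other 4, where chance gives about 1 in 20. The gap to the nearest array, as a share of the range of the group, was 0.72 for MRPS27 in males, where male replicate 1 read 13.55 and the others 13.66 to 13.70. It was 0.839 for MRPL12 in males, with male replicate 2 at 12.98 against 13.08 to 13.10, and 0.835 for MRPL48 in males, with male replicate 3 at 12.60 against 12.25 to 12.31. These distances are small on the log2 scale, and leaving out any of these arrays left the call of each of these 3 genes as it was.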

How the results depend on the processing

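With each array left out in turn, all 5 Z-linked genes stayed higher in males, and the median Z-linked difference ran from 0.80 to 0.93. The count of the 67 genes higher in males ran from 5 to 6 (6 without female replicate 2, which adds MRPL21), where 149 to 198 of all 13051 genes were. Without the types of probe set that can match more than 1 transcript, MRPL17 had none left and MRPL50 kept its dim probe set (1.31, limma adjusted p = 0.053). In that setting 3 genes were higher in males, where 141 of all 11297 genes left were. The Z-linked median was 0.95 and the Z-linked minus autosomal difference 0.97. With the mean over probe sets, MRPS27 fell to 0.34 (limma adjusted p = 0.91), since its further probe set is at background. Sample titles carry letters, B to E in both sexes, with no word that they mark pairs. The title of male replicate 1 gives neither letter nor sex, and its sex comes from its description. Same-letter samples deviated with correlations of -0.03 to 0.09. With these letters as replicate block (4 males, 4 females), 0 of the 67 genes were higher in males, among 0 of all 13051 genes, with 1 gene higher in females. The Z-linked median was then 0.94, the Z-linked minus autosomal difference 0.97, and adjusted p of the 5 genes ran from 0.0867 to 0.181 in limma. The exact permutation test, unadjusted, gave 6 genes higher in males and 3 higher in females, where 3.82% and 3.64% of all genes passed. MRPL34, at background, changed sign to 0.13 with quantile normalization, 0.28 with array weights and 0.87 with the replicate block, and in leave-one-out fits it ran from -0.52 to 0.56. The small differences of MRPL58 (0.01 to 0.11), MRPS12 (0.01 to 0.09) and MRPS18A (-0.06 to -0.03) also moved by over 1.5 times in leave-one-out fits.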
